A study of Mus musculus with 6 samples.

Results

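Transcripts of 10 genes that coat, empty and fill lipid droplets were followed in primary mouse hepatic stellate cells, the fat- and vitamin A-storing pericytes of the liver. They are the rows of the deposited exon count table whose symbol is Plin2, Plin3, Plin4, Pnpla2, Lipe, Mgll, G0s2, Acsl1, Dgat1 or Dgat2, and all 10 were found among 24940 rows. The mice were wild-type C57BL/6JBomTac females. In culture, 2 days after isolation, the Fsk group received 5 µM forskolin, a compound from a plant that switches on adenylyl cyclase, the enzyme making cyclic AMP, and the Ctrl group received the same volume of its solvent dimethyl sulfoxide. The medium was replaced after 3 h in both groups and RNA was taken 21 h later, 24 h after the start. Each group has 3 libraries of polyadenylated RNA, lettered A to C. Whether the letters stand for different animals or dishes is not said in the labels, so the p-values reflect the spread among libraries, which could be technical. In RNA from whole dishes, fewer expressing cells and less RNA per cell cannot be told apart.

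Stellate cells keep retinyl esters and triglyceride in lipid droplets, which are fat cores wrapped in a phospholipid layer and coated by perilipins. Fatty acids enter the store after long-chain acyl-CoA synthetases activate them and acyltransferases attach them to glycerol, the last step to triglyceride being made by the diacylglycerol acyltransferases Dgat1 and Dgat2. They leave it through 3 lipases in turn, Pnpla2 (also called ATGL), Lipe (hormone-sensitive lipase) and Mgll (monoacylglycerol lipase). In fat cells cyclic AMP speeds this up within minutes through phosphorylation by protein kinase A, a step that RNA levels do not show.

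Total counts ran from 10890193 to 12954310 in Fsk libraries and from 13001358 to 15090262.5 in Ctrl libraries, so the Ctrl libraries were the deeper ones. All 12 stellate cell markers were detected, with a summed level of 4884 to 5049 CPM (the usual counts-per-library scale, corrected by edgeR's TMM factors) in Fsk libraries and 4759 to 5021 CPM in Ctrl libraries. Within that sum 6 of the 12 markers rose and 3 fell in the edgeR test described below. Among all tested genes 24.8% rose and 25.1% fell. Hgf (hepatocyte growth factor) had a fold change of 2.02, and those that fell were Des (desmin, 0.563), Pdgfrb (0.741) and Col1a1, the most abundant (0.834). None of the 9 hepatocyte markers reached 1 CPM on average, and their sum stayed at or under 0.227 CPM in Fsk and 0.301 CPM in Ctrl libraries. Of 9 adipocyte markers 8 averaged under 1 CPM, and the list's sum, mostly the fatty acid binding protein gene Fabp4, was 7.06 to 7.36 CPM in Fsk and 9.24 to 11.9 CPM in Ctrl libraries. The 9 macrophage markers summed to 37.8 to 39.0 CPM in Fsk and 34.3 to 36.8 CPM in Ctrl libraries, and the 7 sinusoidal endothelial markers to 8.50 to 9.66 CPM in Fsk and 12 to 13.7 CPM in Ctrl libraries. Among the macrophage markers Csf1r and Cd68 were higher with Fsk and Lyz2 lower. The other 6 averaged under 1 CPM, and of these Marco had no count in any library. Among the endothelial markers Stab2 was higher with Fsk (fold change 2.47) and Kdr, Lyve1 and Tek were lower, while the other 3 averaged under 1 CPM. Fabp4 itself fell to 5.96 ± 0.58 CPM with Fsk, against 9.49 ± 1.3 CPM with Ctrl (SD, n = 3 each), and Lep had no count. The part of these other cell types in the results below was not tested.

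With Fsk, 3 of the 10 genes rose (G0s2, Dgat1 and Plin3) and 2 fell (Mgll and Acsl1), while Plin2, Pnpla2, Lipe and Dgat2 did not pass the test and Plin4 had too few counts to enter it. No change among the 9 tested genes reached 2-fold. The test was edgeR's quasi-likelihood test over all 13357 genes with enough counts, with Benjamini-Hochberg adjustment and calls made at 0.05. That threshold was passed by 49.9% of all tested genes, 24.8% being higher and 25.1% lower, so 5 of 9 tested droplet genes lies close to the background. The median log2 fold change of the 9 was 0.05, against 0.01 over all tested genes, and their median absolute log2 fold change was 0.23, against 0.22. The groups did not overlap for 4 of the 9 (3 with all Fsk libraries above and 1 with all below). Among all tested genes 57.2% showed no overlap, 28.8% with Fsk above and 28.3% with Fsk below. The genes are therefore described 1 by 1 below, by role.

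**Figure D1:**
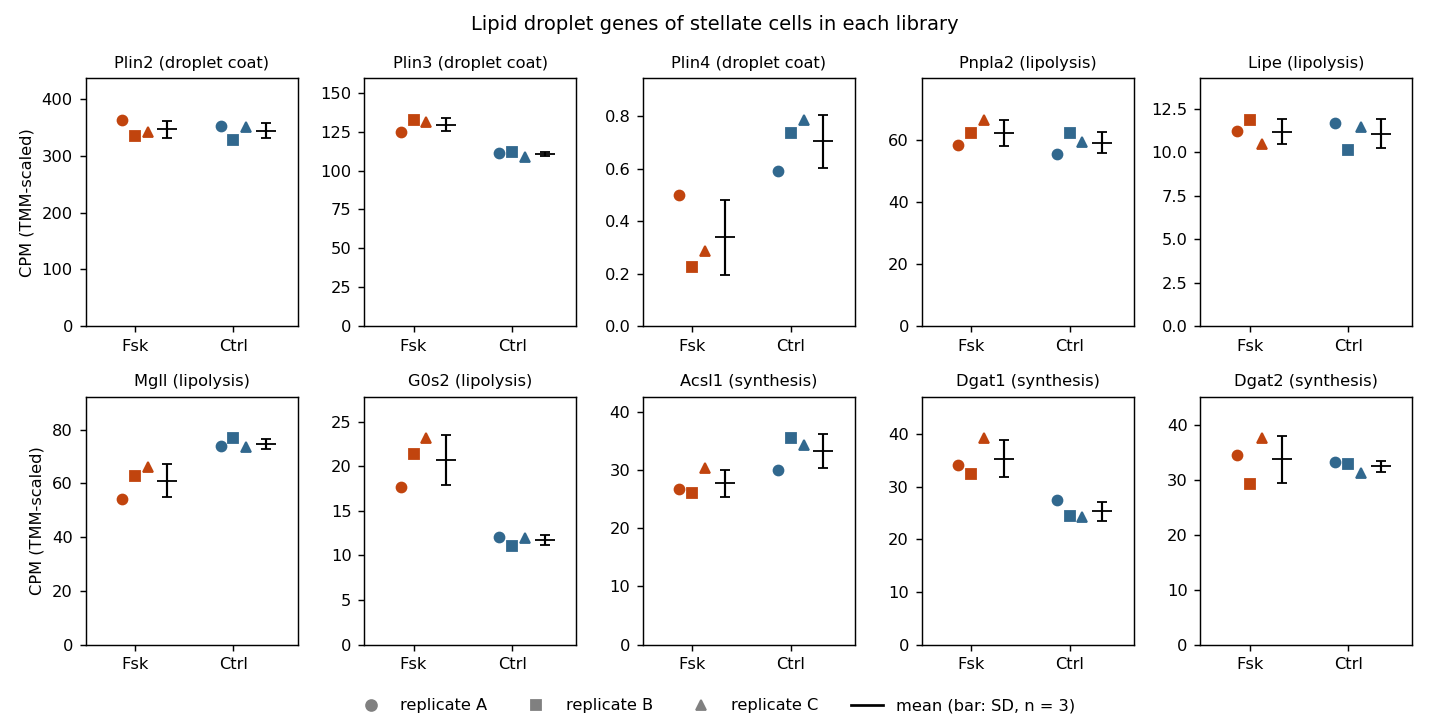
Level of each of the 10 genes in CPM on TMM-scaled library sizes (y axis, from 0) in the 3 Fsk and 3 Ctrl libraries (x axis), with the mean and SD beside the points. All 3 Fsk libraries lie above all Ctrl libraries for G0s2, Dgat1 and Plin3 and below them for Mgll and Plin4, and the groups overlap for the other 5 genes.

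The DNA just before the start of 4 of the 5 genes that changed is shown here, since a response to cyclic AMP is classically read from a motif near the start. Entries were found for 8 of the 10 genes in a RefSeq promoter table on GRCm38.p6. They are printed 5′ to 3′ as the 250 bases before the start site, which equals that of the deposited transcript, with capitals marking the half-site TGACG on either strand.
G0s2, chr1:193273189-193273438, minus strand: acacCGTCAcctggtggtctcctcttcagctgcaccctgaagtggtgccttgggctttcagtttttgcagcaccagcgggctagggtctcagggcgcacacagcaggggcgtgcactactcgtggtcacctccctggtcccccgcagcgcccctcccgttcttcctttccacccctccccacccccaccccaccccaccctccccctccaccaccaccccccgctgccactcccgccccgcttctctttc
Plin3, chr17:56290512-56290761, minus strand: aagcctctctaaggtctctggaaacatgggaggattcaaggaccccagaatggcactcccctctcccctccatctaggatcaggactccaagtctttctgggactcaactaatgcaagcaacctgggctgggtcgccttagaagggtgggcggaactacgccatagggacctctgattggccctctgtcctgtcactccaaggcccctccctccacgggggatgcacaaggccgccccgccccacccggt
Mgll, chr6:88724162-88724411, plus strand: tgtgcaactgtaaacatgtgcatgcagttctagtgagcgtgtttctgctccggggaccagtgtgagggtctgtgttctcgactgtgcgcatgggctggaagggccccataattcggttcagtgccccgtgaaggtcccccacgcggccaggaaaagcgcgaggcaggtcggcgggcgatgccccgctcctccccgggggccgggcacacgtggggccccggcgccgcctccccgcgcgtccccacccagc
Acsl1, chr8:46470787-46471036, plus strand: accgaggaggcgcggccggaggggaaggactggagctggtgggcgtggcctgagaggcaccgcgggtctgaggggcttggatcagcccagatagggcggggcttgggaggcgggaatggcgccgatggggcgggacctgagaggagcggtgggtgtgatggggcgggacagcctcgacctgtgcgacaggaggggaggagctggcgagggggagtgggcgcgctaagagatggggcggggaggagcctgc
The full cyclic AMP response element TGACGTCA was in none of the windows of the 8 genes, and in 1.55% of 32851 windows of the same length. The half-site TGACG, which the full element contains, occurred in the G0s2 window, its first base in the printed orientation lying 246 bases before the start, and in none of the windows of the other 7 genes. In all, 17.8% of windows hold it. The direct repeat of AGGTCA with 1 base between, a form read by PPAR and RXR receptors, was in none of these windows and in 0.0335% of all. A match is a run of letters, not a shown binding site.

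Among the coat proteins, Plin2 was the most abundant transcript and did not pass the test, and Plin3 rose slightly. Plin2 (mm10 chromosome 4, 86656565 to 86670059, minus strand) encodes adipophilin, the main perilipin of cells other than fat cells, whose protein is stable only on lipid. It had 364, 335 and 343 CPM in Fsk A, B and C, against 353, 329 and 351 CPM in Ctrl A, B and C. The groups overlapped, and the fold change was 1.01 with a 95% interval of 0.945 to 1.08 (edgeR adjusted p = 0.842). In TPM, which divides counts by exon length and so allows genes to be compared, Plin2 stood at 515 ± 21.3 TPM with Fsk and 507 ± 14.6 TPM with Ctrl (SD, n = 3 each), a level above that of 98.6% of tested genes.

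Plin3 (chromosome 17, 56278962 to 56290511, minus strand) encodes a perilipin that moves between the cytosol and newly forming droplets. It had 125, 133 and 131 CPM in Fsk A, B and C, against 111, 112 and 109 CPM in Ctrl A, B and C. Every Fsk library was above every Ctrl library. The rise was 1.17-fold (95% interval 1.10 to 1.25, log2 fold change 0.23, SE 0.0453, edgeR adjusted p = 0.000398). The ratio of Plin2 to Plin3, in counts per base of exon within a library, was 3.34, 2.89 and 3.0 in Fsk A, B and C and 3.63, 3.37 and 3.69 in Ctrl A, B and C. The groups separated, and the two-sided exact permutation test over the 6 libraries gave p = 0.1, the smallest that 3 against 3 allows. The size of this ratio depends on the exon length of Plin3, deposited as 2149 bases, where GENCODE exons of the transcript cover 3645. That length is the same for every library.

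Plin4 (chromosome 17, 56100591 to 56109802, minus strand), the perilipin with long amphipathic repeats that is abundant in fat and muscle cells, was barely present. It had 5.5, 3 and 3.5 counts in Fsk A, B and C, against 8, 11 and 10 counts in Ctrl A, B and C, which is 0.501, 0.227 and 0.288 CPM with Fsk and 0.591, 0.737 and 0.787 CPM with Ctrl. All Fsk values lay below all Ctrl values. Pooled over libraries, the ratio of Fsk to Ctrl was 0.468, with an exact 95% binomial (Clopper-Pearson) interval of 0.218 to 0.946 that covers counting error only. Plin4 did not pass the filter on low counts, and when that filter was dropped its edgeR adjusted p was 0.240, while DESeq2 gave an adjusted p of 0.357. In every library Plin4 was at most 0.0576% of the summed TPM of the 3 coat genes, 75.4 ± 1.37% of which was Plin2 with Fsk and 78.0 ± 0.837% with Ctrl. These shares use the deposited exon length of Plin3, 2149 bases, where GENCODE exons of the transcript cover 3645. Plin5, the neighbour of Plin4 on chromosome 17 and the perilipin of oxidative tissues, and Plin1, that of fat cells, were lower than Plin4 in mean CPM and were not tested. Per exon length Plin5 was not lower than Plin4. It had a mean of 0.272 ± 0.0457 TPM with Fsk and 0.410 ± 0.367 TPM with Ctrl (SD, n = 3 each), against 0.164 and 0.339 TPM for Plin4.

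In lipolysis the enzymes of the first and second step did not pass the test, the inhibitor of the first rose and the enzyme of the last fell. Pnpla2 (chromosome 7, 141455188 to 141460743, plus strand), the lipase that takes the first fatty acid from triglyceride, had 58.2, 62.0 and 66.4 CPM in Fsk A, B and C, against 55.4, 62.2 and 59.4 CPM in Ctrl A, B and C. The groups overlapped, and the interval of the fold change was 0.961 to 1.16 (edgeR adjusted p = 0.337).

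G0s2 (chromosome 1, 193272160 to 193273188, minus strand) encodes a small protein that binds the Pnpla2 lipase and blocks it. It had 17.7, 21.3 and 23.1 CPM in Fsk A, B and C, against 12.1, 11.1 and 12 CPM in Ctrl A, B and C. The lowest Fsk library was well above the highest Ctrl library. This was the largest change of the 9 tested genes, 1.77-fold (95% interval 1.5 to 2.09, log2 fold change 0.83, SE 0.115, edgeR adjusted p = 9.14e-06). In absolute log2 fold change G0s2 ranked 1287 of 13357 tested genes. It passed under each of the 13 alternative analyses, with log2 fold changes of 0.74 to 0.93.

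The ratio of the inhibitor to its enzyme, G0s2 over Pnpla2 in counts per base of exon, was 0.95, 1.08 and 1.09 in Fsk A, B and C, against 0.683, 0.558 and 0.630 in Ctrl A, B and C. Transcripts of inhibitor and enzyme were thus about level with Fsk, and the inhibitor's were fewer in every Ctrl library. The log2 ratio differed by 0.74 (two-sided exact permutation p = 0.1, the smallest possible, and 0.12 adjusted over the 6 pairs of genes compared).

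Lipe (chromosome 7, 25379527 to 25395987, minus strand), which takes the second fatty acid and also splits cholesteryl and retinyl esters, was the least abundant lipase. It had 11.2, 11.9 and 10.5 CPM in Fsk A, B and C, against 11.7, 10.1 and 11.4 CPM in Ctrl A, B and C. The groups overlapped, and the 95% interval of the fold change, 0.850 to 1.21, covers a rise as large as that of Plin3 (edgeR adjusted p = 0.897). Exons of an antisense gene, 4732471J01Rik, cover 22.4% of its exon bases, and since the labels do not state that strand was kept, reads of both genes cannot be told apart. The ratio of Lipe to Pnpla2 per base of exon was 0.148 ± 0.0161 with Fsk and 0.154 ± 0.0197 with Ctrl (SD, n = 3 each, exact permutation p = 0.6).

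Mgll (chromosome 6, 88724412 to 88828360, plus strand) frees the last fatty acid from glycerol and also breaks down the endocannabinoid arachidonoylglycerol. It had 54.2, 62.8 and 66.0 CPM in Fsk A, B and C, against 73.9, 76.9 and 73.6 CPM in Ctrl A, B and C. Every Fsk library was below every Ctrl library, and Fsk A was the lowest. The fold change was 0.818 (95% interval 0.744 to 0.899, log2 fold change -0.29, SE 0.0649, edgeR adjusted p = 0.00114). With library size as a covariate the call was lost (log2 fold change -0.16, adjusted p = 0.227). The ratio of Mgll to Lipe per base of exon was 4.23, 4.64 and 5.52 in Fsk A, B and C, against 5.55, 6.65 and 5.64 in Ctrl A, B and C, a narrow separation (exact permutation p = 0.1).

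**Figure D2:**
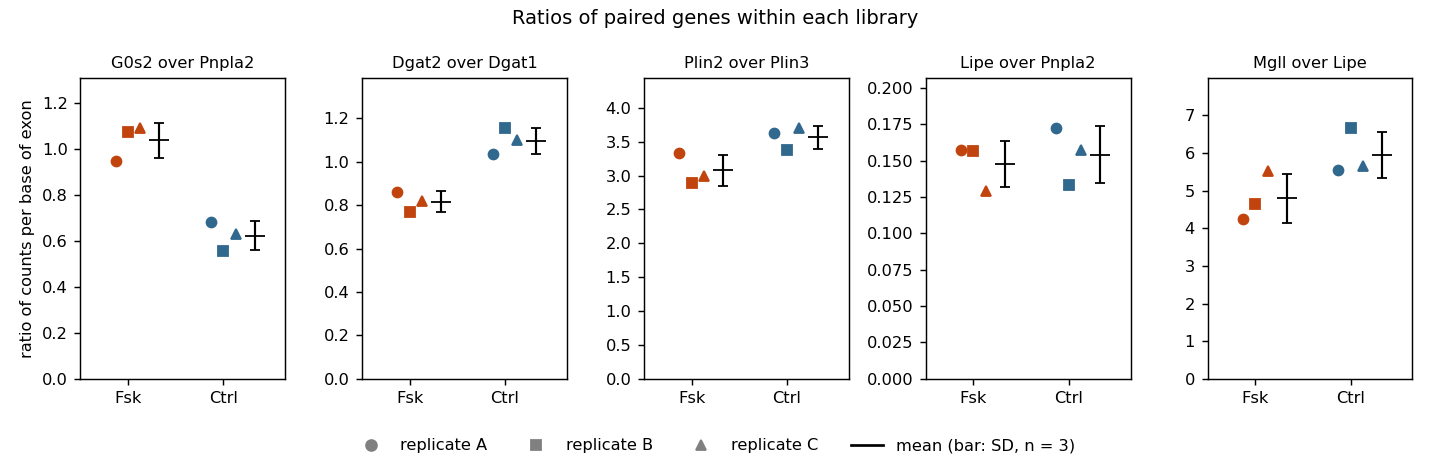
Ratio of counts per base of exon for 5 pairs of genes (y axis, from 0) in each of the 3 Fsk and 3 Ctrl libraries, with mean and SD. The G0s2 over Pnpla2 ratio is 0.95 to 1.09 in Fsk libraries and 0.558 to 0.683 in Ctrl libraries, and the Lipe over Pnpla2 ratio overlaps between the groups.

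In triglyceride synthesis, Dgat1 rose, Dgat2 did not pass and Acsl1 fell slightly. Dgat1 (chromosome 15, 76502012 to 76511994, minus strand) encodes an acyltransferase of the endoplasmic reticulum that makes triglyceride and can also esterify retinol. It had 34.2, 32.5 and 39.2 CPM in Fsk A, B and C, against 27.4, 24.4 and 24.3 CPM in Ctrl A, B and C. The groups were apart. The rise was 1.39-fold (95% interval 1.23 to 1.58, log2 fold change 0.48, SE 0.0874, edgeR adjusted p = 0.000184), and it passed under each of the 13 alternatives.

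Dgat2 (chromosome 7, 99153663 to 99182713, minus strand) catalyses the same reaction with an unrelated protein. It had 34.4, 29.2 and 37.6 CPM in Fsk A, B and C, against 33.2, 32.9 and 31.2 CPM in Ctrl A, B and C. Fsk B was the lowest and Fsk C the highest of the 6, so the groups overlapped (fold change 1.04, 95% interval 0.914 to 1.18, edgeR adjusted p = 0.644). Per base of exon, Dgat2 over Dgat1 was 0.861, 0.766 and 0.818 in Fsk A, B and C, against 1.03, 1.15 and 1.10 in Ctrl A, B and C. Dgat1 was thus the more abundant of the pair in every Fsk library and Dgat2 in every Ctrl library (exact permutation p = 0.1, 0.12 adjusted over the 6 pairs).

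Acsl1 (chromosome 8, 46471037 to 46536051, plus strand), which activates long-chain fatty acids by joining them to coenzyme A, had 26.7, 26.0 and 30.3 CPM in Fsk A, B and C, against 29.9, 35.4 and 34.3 CPM in Ctrl A, B and C. Fsk C was above Ctrl A, so the groups overlapped. The fold change was 0.832 (95% interval 0.733 to 0.944, log2 fold change -0.26, SE 0.0868, edgeR adjusted p = 0.0166). The call was lost without Fsk B (adjusted p = 0.0795), without Ctrl B (0.102), without Ctrl C (0.0693) and also when library size entered as a covariate (0.230), the log2 fold change staying between -0.33 and -0.21 over all 13 alternatives.

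Ordered by TPM, the Fsk libraries gave Plin2, Plin3 (168 ± 6.07), G0s2 (68.7 ± 9.03), Pnpla2 (65.9 ± 4.05), Dgat1 (51.3 ± 4.56), Mgll (46.3 ± 4.55), Dgat2 (41.8 ± 4.83), Acsl1 (19.9 ± 1.45), Lipe (9.70 ± 0.703) and Plin4 (0.164 ± 0.0695, SD, n = 3 each). G0s2 overlapped Pnpla2 there, and Mgll overlapped both Dgat1 and Dgat2. The Ctrl libraries gave Plin2, Plin3 (142 ± 3.20), Pnpla2 (62.2 ± 4.09), Mgll (56.4 ± 1.97), Dgat2 (40.0 ± 1.58), G0s2 (38.6 ± 1.44), Dgat1 (36.6 ± 2.46), Acsl1 (23.7 ± 2.24), Lipe (9.53 ± 0.623) and Plin4 (0.339 ± 0.0497, SD, n = 3 each). Pnpla2 overlapped Mgll there, and G0s2 overlapped both Dgat2 and Dgat1. G0s2 thus took the third place with Fsk and the sixth with Ctrl, while Plin2, Plin3, Acsl1, Lipe and Plin4 held the same places in both.

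Beyond the 10 genes, a list of 42 other genes of droplet structure, lipolysis and glycerolipid or sterol ester synthesis held 31 tested genes, of which 11 rose, 9 fell and 11 did not pass. That is 64.5%, against 49.9% of all tested genes, with a median log2 fold change of -0.04. At least 2-fold changes that passed were seen for 3 of the 31, against 6.62% of all tested genes. Of 15 droplet structure genes 9 were tested, 3 rising (Hilpda, Rab18, Faf2) and 2 falling (Aup1, Ldah), and the 6 left out stayed at or under 0.512 CPM in each library. Apart from Hilpda these changes were small, with fold changes of 1.18 for Rab18, 1.09 for Faf2, 0.848 for Aup1 and 0.888 for Ldah. The Faf2 call was lost without Fsk B, Ctrl A or Ctrl C, with DESeq2 (adjusted p = 0.0913) and with library size in the fit (0.0676). The Ldah call was lost without Ctrl C, with scaling by library size alone (adjusted p = 0.0575) and with library size in the fit (0.119), and 33.6% of the exon bases of Aup1 are shared with Htra2 on the other strand. Of 7 lipolysis genes 4 were tested, Ddhd2, a triglyceride lipase known from brain, rising 1.39-fold and Lipa and Abhd5 falling. Of 20 synthesis genes 18 were tested, 7 rising and 5 falling.

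**Figure D3:**
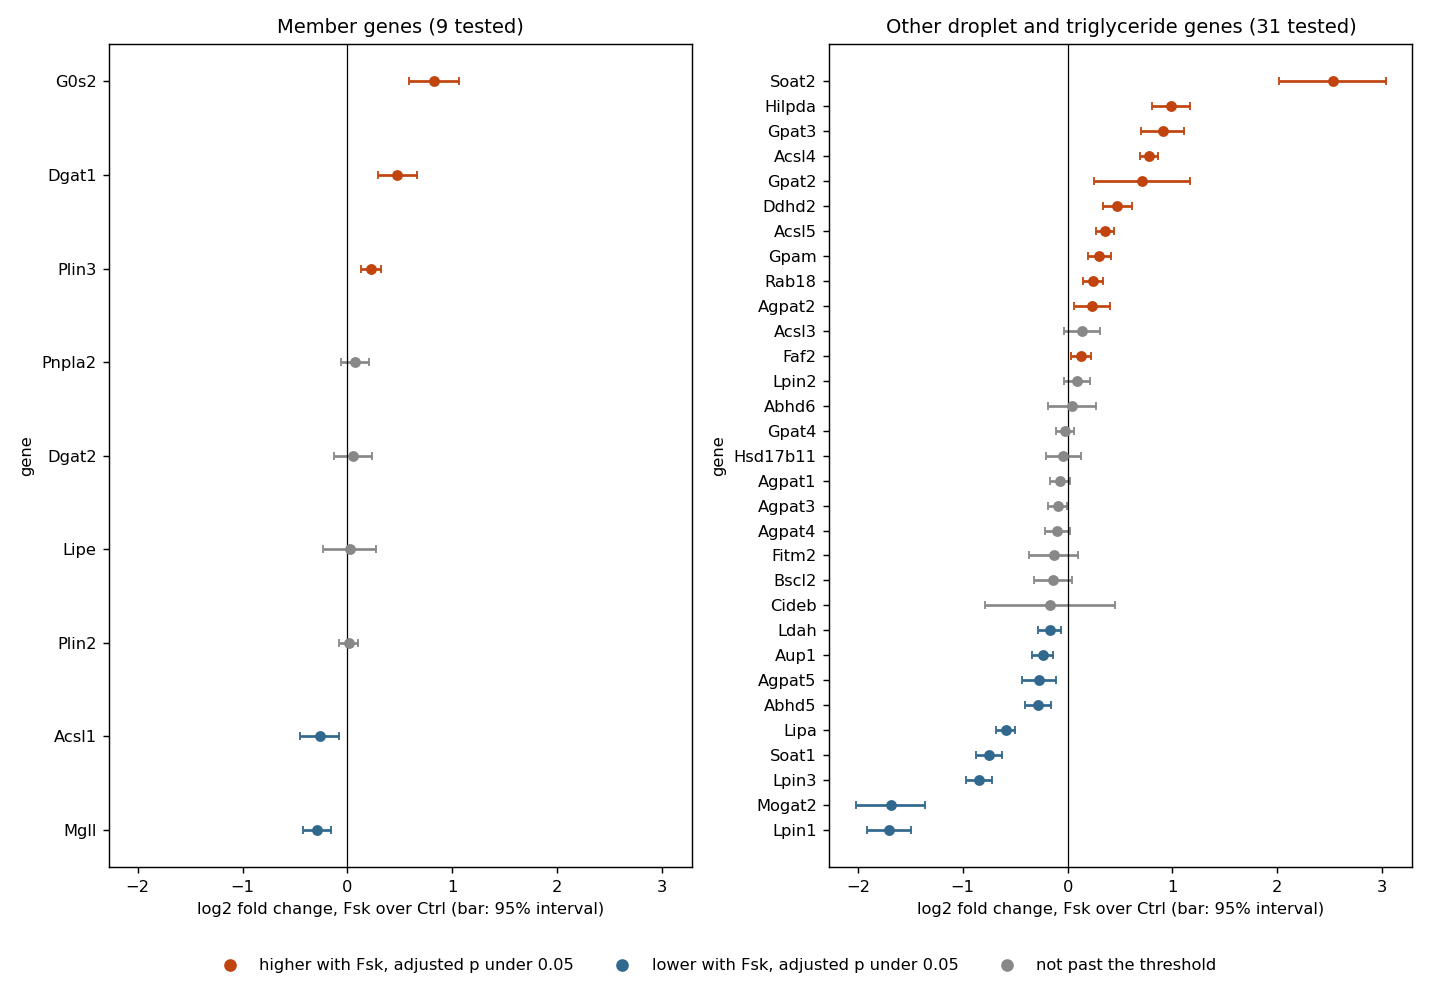
Log2 fold change, Fsk over Ctrl (x axis), with 95% intervals for the 9 tested droplet genes (left) and the 31 tested genes of the wider list (right), each sorted by size. G0s2 leads the first panel at 0.83 and Mgll closes it at -0.29, and the second runs from Soat2 at 2.53 to Lpin1 at -1.70.

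Other regulators of the Pnpla2 step also differed, and were picked for description with their values in view. Hilpda (chromosome 6, 29272626 to 29275449), which encodes a droplet protein that like G0s2 inhibits this lipase, had 41.5, 38.4 and 36.5 CPM in Fsk A, B and C, against 21.4, 18.0 and 19.4 CPM in Ctrl A, B and C, a rise of 1.98-fold (95% interval 1.75 to 2.25, edgeR adjusted p = 2.58e-08). Abhd5, the lipase's coactivator, had 84.0, 89.3 and 81.5 CPM in Fsk A, B and C, against 112, 97.9 and 99.6 CPM in Ctrl A, B and C, and fell (fold change 0.824, adjusted p = 0.000599). Neither gene's groups overlapped, which holds for 57.2% of all tested genes. The antisense gene A730085K08Rik covers 30.1% of the exon bases of Abhd5, so its count is uncertain. Lipa, the lysosomal acid lipase that digests triglyceride and sterol esters delivered to lysosomes, fell to 119 ± 1.94 CPM with Fsk, against 180 ± 4.70 CPM with Ctrl (SD, n = 3 each, adjusted p = 2.26e-09).

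At the steps before the diacylglycerol acyltransferases, genes of the same enzyme family differed in direction or size. Acsl4, an acyl-CoA synthetase that prefers arachidonic acid, rose 1.72-fold, with 442 ± 13.3 CPM in Fsk and 257 ± 5.18 CPM in Ctrl libraries (SD, n = 3 each, edgeR adjusted p = 2.19e-11). The summed TPM of the 5 acyl-CoA synthetase genes was 473 ± 2.40 with Fsk and 332 ± 0.593 with Ctrl. Acsl1 made up 4.20 ± 0.326% of it with Fsk and 7.14 ± 0.664% with Ctrl, and Acsl4 49.4 ± 1.47% with Fsk and 40.7 ± 0.468% with Ctrl, so Acsl1 was a minor transcript of its family in both groups. Gpat3, a glycerol-phosphate acyltransferase singled out after its values were seen, rose 1.88-fold (31.3 ± 2.77 CPM with Fsk, 16.7 ± 1.71 CPM with Ctrl, adjusted p = 3.81e-07), with an antisense gene and another overlapping gene over part of its exons. The summed TPM of the 4 genes of its family was 222 ± 8.21 with Fsk and 198 ± 0.713 with Ctrl. Gpat3 made up 13.7 ± 0.826% of it with Fsk and 8.17 ± 0.741% with Ctrl, a minor part in both groups.

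The lipins, phosphatases that turn phosphatidic acid into diacylglycerol, fell for 2 of their 3 genes, a family singled out with its values in view, where 25.1% of all tested genes fell. Lpin1 had 11, 10.8 and 10.4 CPM in Fsk A, B and C, against 35.4, 37.6 and 31.2 CPM in Ctrl A, B and C (log2 fold change -1.70, SE 0.0987, edgeR adjusted p = 8.57e-11). Lpin3 fell to 58.6 ± 4.16 CPM with Fsk, against 105 ± 5.66 CPM with Ctrl (adjusted p = 1.52e-09), and Lpin2 did not pass. Their summed TPM was 93.9 ± 3.87 with Fsk and 140 ± 6.78 with Ctrl. Mogat2, which makes diacylglycerol from monoacylglycerol and lies near Dgat2 on the same strand of chromosome 7 (99219084 to 99238611), had 4.06, 4.38 and 6.41 CPM in Fsk A, B and C, against 14.5, 17.5 and 15.8 CPM in Ctrl A, B and C (log2 fold change -1.69, adjusted p = 6.43e-08).

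The enzymes that esterify cholesterol for storage in droplets changed in opposite directions. Soat2 had 9.52, 9.48 and 5.96 CPM in Fsk A, B and C, against 1.18, 1.78 and 1.34 CPM in Ctrl A, B and C, a 5.77-fold rise (95% interval 4.06 to 8.21, edgeR adjusted p = 8.54e-08). Soat1 fell to 76.6 ± 5.82 CPM with Fsk, against 129 ± 6.31 CPM with Ctrl (adjusted p = 4.14e-09). Soat1 was still 80.5 ± 2.96% of the pair's TPM with Fsk and 97.6 ± 0.421% with Ctrl. These shares use the deposited exon length of Soat1, 4767 bases, where GENCODE exons of the transcript cover 8371.

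**Figure D4:**
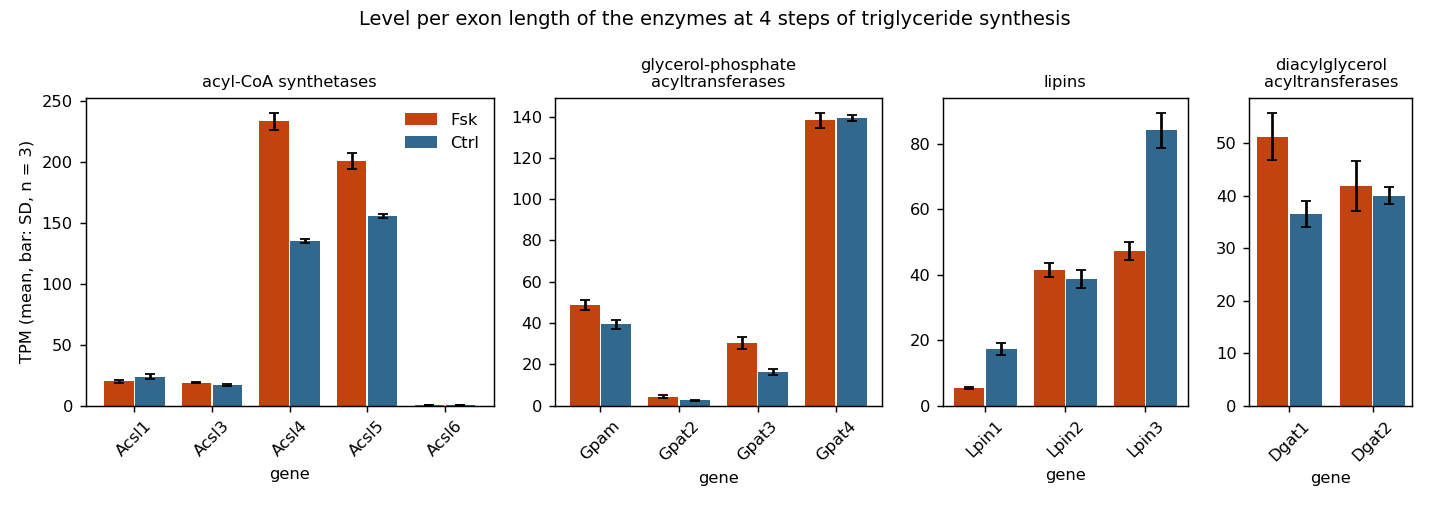
Mean level per exon length in TPM (y axis, from 0) of the genes at 4 enzymatic steps of triglyceride synthesis in Fsk and Ctrl libraries, with SD over 3 libraries. Acsl4 and Acsl5 dominate the acyl-CoA synthetases in both groups, Lpin1 and Lpin3 are lower with Fsk, and Dgat1 is above Dgat2 with Fsk.

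Fatty acids freed from droplets can be burned in mitochondria and peroxisomes, and of 24 genes of that pathway, all tested, 9 rose and 4 fell. That is 54.2%, against 49.9% of all tested genes, with a median log2 fold change of 0.04. Cpt1a, the gate for entry of fatty acids into mitochondria, rose 1.32-fold, with 295, 299 and 300.0 CPM in Fsk A, B and C, against 222, 228 and 228 CPM in Ctrl A, B and C (edgeR adjusted p = 1.2e-07). Cpt1c, its form best known from brain, fell to 42.4 ± 0.356 CPM with Fsk, against 68.1 ± 2.45 CPM with Ctrl (adjusted p = 1.86e-08), with 13.1% of its exon bases under an antisense gene. Eci1, Decr1 and Echs1, mitochondrial enzymes of beta-oxidation, rose 1.37-fold, 1.28-fold and 1.28-fold. Ehhadh and Acaa1b, which encode peroxisomal enzymes and are named here with their values in view, also fell. Ehhadh fell to 7.21 ± 0.72 CPM with Fsk, against 10.1 ± 0.479 CPM with Ctrl (adjusted p = 0.00773), but did not pass once library size entered the fit. Acaa1b (fold change 0.398, adjusted p = 0.000939) stood at 0.831 to 1.28 CPM in Fsk and 2.18 to 3.22 CPM in Ctrl libraries, while its near copy Acaa1a, also peroxisomal, rose 1.2-fold (adjusted p = 0.00104), and reads of these copies may have been shared.

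Of 15 genes for transcription factors and cofactors that control droplet genes, 13 were tested, of which 3 rose and 3 fell (46.2%, against 49.9% of all tested genes, median log2 fold change 0.04). Ppard, a fatty acid receptor of the PPAR family, rose to 126 ± 0.881 CPM with Fsk, against 99.5 ± 4.02 CPM with Ctrl (edgeR adjusted p = 1.01e-05). The oxysterol receptor gene Nr1h3 (LXR alpha) rose 1.72-fold (adjusted p = 0.000334), and the receptor genes Rxra and Esrra fell, with fold changes of 0.870 and 0.807. Ppargc1a, a coactivator of mitochondrial genes named with its values in view, was low but had 3.42, 2.23 and 1.23 CPM in Fsk A, B and C, against 0.812, 0.670 and 0.787 CPM in Ctrl A, B and C (adjusted p = 0.0018). That call was lost with library size as a covariate (adjusted p = 0.185). Mlx, a partner of the glucose-responsive factor encoded by Mlxipl, fell to 32.0 ± 1.42 CPM with Fsk, against 48.2 ± 2.42 CPM with Ctrl (adjusted p = 1.22e-06), 19.6% of its exon bases also lying in Psmc3ip on the other strand. Pparg, the adipogenic PPAR, was not tested, with 1.09, 0.642 and 0.740 CPM in Fsk A, B and C and 0.886, 0.301 and 0.236 CPM in Ctrl A, B and C.

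**Figure D5:**
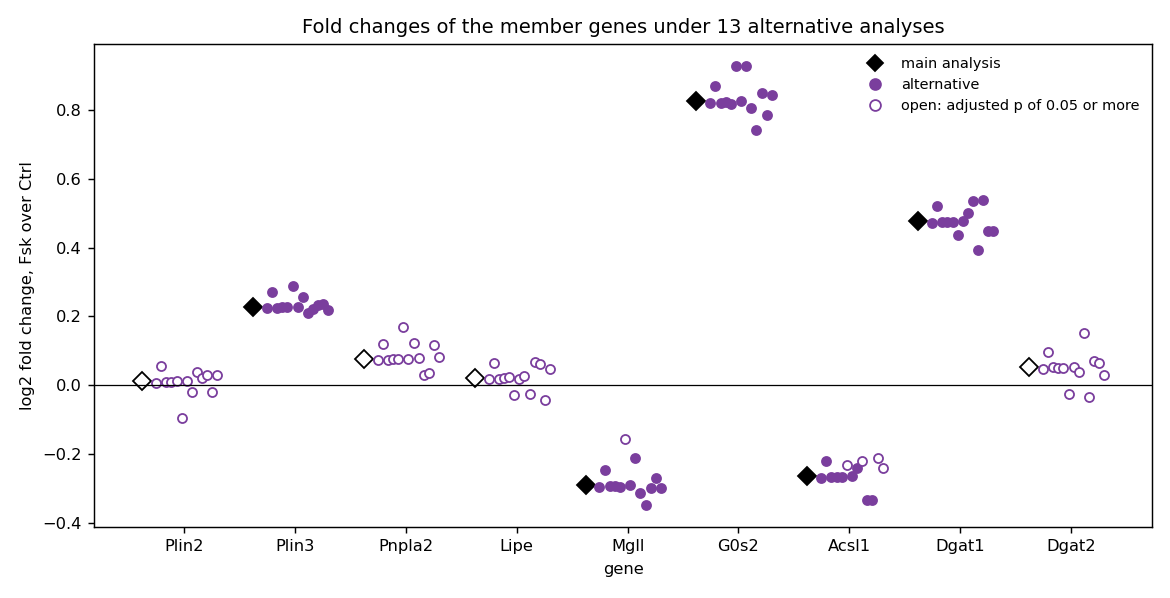
Log2 fold change, Fsk over Ctrl (y axis), of the 9 tested droplet genes in the main analysis (diamonds) and under 13 alternatives (circles), open where the adjusted p was 0.05 or more. G0s2, Dgat1 and Plin3 stay above 0 and filled, Mgll and Acsl1 stay below 0 with 1 and 4 open circles, and Plin2, Lipe and Dgat2 scatter around 0.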

How the data were processed

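The estimated counts (also called expected counts) over exons, not normalized, were deposited by the authors in 1 table, with 1 RefSeq transcript per symbol. Per the submitters' processing notes, STAR, HOMER and the mouse build mm10 were used; the sources used here give no versions or settings. Values are multiples of 0.5, 31.8% of them not whole, and were rounded to whole numbers. In R 4.3.3, edgeR 4.0.16 kept 13357 genes by filterByExpr (minimum count 10, minimum total 15), scaled libraries by TMM and compared Fsk with Ctrl by glmQLFit and glmQLFTest, with no covariate besides group. Two-sided p-values were adjusted over all genes. The fit was tested on simulated data. Intervals are 95%. The other analyses were DESeq2 1.42.0, DESeq2 size factors within edgeR, library size alone, no filter, a replicate block, library size as covariate, counts rounded down, and leaving out each library. TPM and ratios per base of exon used the deposited exon lengths, which for Plin3 and Soat1 were well under those in GENCODE M21. Overlaps of exons came from GENCODE M21 on GRCm38.

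Members and lists were chosen with earlier results of these data known. All 10 members are named; of each other list, up to 5 called genes with the smallest adjusted p whose mean reached 5 CPM and, whatever its level, any called gene of the wider list that changed at least 2-fold. Rab18, Faf2, Aup1, Ldah, Ddhd2, Hilpda, Abhd5, Gpat3, Ehhadh, Acaa1a, Acaa1b and Ppargc1a were named with their values in view. 1 gene of the oxidation list is counted but not reported here.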

Additional observations from a re-analysis of the deposited data

How the results depend on the processing

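The count of droplet genes past the threshold was 5 in the main analysis and 3, all higher, with library size as a covariate, where the count over all genes was 4297 in place of 6668. That term is partly confounded with the groups, since the Fsk libraries are the shallower ones. In the other 12 alternatives both counts, and in all 13 the counts of the wider, oxidation and regulator lists, stayed within 1.5 times of the main value. Library size alone gave 3988 higher and 2874 lower genes in place of 3319 and 3349. With the replicate block, 6675 genes and the same number of droplet genes, 5, passed, but the shared letters were not taken as pairs: deviations from the group means of same-lettered libraries correlated at 0.0291, 0.0203 and 0.0377, each the best match of its library yet under 0.1. Without 1 library each, the count over all genes ran from 5640 to 6800 and that of the droplet genes from 4 to 5.

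Directions near 0 turned. With library size as a covariate the log2 fold changes of Plin2, Lipe and Dgat2 were -0.096, -0.028 and -0.026. Leaving out 1 library each moved Plin2 between -0.020 and 0.037, Lipe between -0.042 and 0.066, Dgat2 between -0.034 and 0.15, and the difference in the log2 ratio of Lipe to Pnpla2 between -0.16 and 0.034 (main value -0.06). None of these passed in any analysis. The cause was not tested. The ratios of the other 5 pairs kept their sign without any 1 library, as plain count ratios and with 1 count added. Depth limits Plin4, with 12 counts over the Fsk libraries and 29 over the Ctrl libraries.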
